A study of Homo sapiens with 7 samples.

Results

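The members are 5 mature miRNAs, hsa-miR-23a-3p, hsa-miR-23b-3p, hsa-miR-27a-3p, hsa-miR-27b-3p and hsa-miR-24-3p, the 3p arms of the miR-23a/27a/24-2 and miR-23b/27b/24-1 clusters. They were found by name among the 2656 mature miRNAs counted, and all 5 were among the 117 that passed the filter on low counts. They were chosen by measured values: miR-23a-3p was abundant, and its scaled level lay above that of every control library in each SYNCRIP-silenced library. The comparison of shSYNCRIP with shCTR is therefore given for the members as a description, with no test.

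HepG2, a human cell line that the study calls hepatocellular carcinoma, was the source of the small extracellular vesicles (sEVs) whose small RNA was sequenced. The cells carried a doxycycline-inducible lentiviral short hairpin RNA, either a control hairpin (shCTR, 3 libraries) or 1 hairpin against SYNCRIP (shSYNCRIP, 4 libraries), and all had been selected with puromycin. SYNCRIP is an RNA-binding protein known for loading miRNAs that carry the short hEXO motif into sEVs. The sEVs were pelleted by differential ultracentrifugation from medium with exosome-free serum, and the replicates are labelled as biological. The titles name HepG2 throughout, whereas a cell line field of the labels runs from HepG2 to HepG8. The table counts miRNAs, so the level of SYNCRIP itself was not measured in it.

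miRNAs of a cluster are cut from 1 primary transcript by Drosha and Dicer, and each is then matured and kept or degraded on its own. The seed, bases 2 to 8 of the mature miRNA, sets most of its targets, so paralogs with the same seed share most of theirs. The miR-23, miR-27 and miR-24 families are known regulators of TGF-β signalling, lipid metabolism and the cell cycle in liver and other tissues, miR-27 among other things through PPARG. In bulk sEVs, fewer vesicles with a miRNA and less of it per vesicle cannot be told apart.

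The 5 mature sequences are shown because the paralogs differ by so little, which bears on how their reads can be assigned. They are those of RefSeq (GRCh38.p14), 5′ to 3′, with the seed in capitals.
hsa-miR-23a-3p: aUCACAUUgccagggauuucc
hsa-miR-23b-3p: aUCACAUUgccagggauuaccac
hsa-miR-27a-3p: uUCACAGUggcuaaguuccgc
hsa-miR-27b-3p: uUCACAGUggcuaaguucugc
hsa-miR-24-3p: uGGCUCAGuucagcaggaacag

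miR-23a-3p and miR-23b-3p had the same seed and differed by 1 substitution, U19A, and by 2 extra bases at the 3′ end of miR-23b-3p, with the base of the first-named miRNA first and positions counted from 1 at the 5′ end. miR-27a-3p and miR-27b-3p also shared a seed and differed by 1 substitution, C19U. A read that ends before base 19 matches both paralogs of a pair equally, and how such reads were counted is not given in the sources used here. The split between paralogs therefore rests on the last bases of the reads. Elsewhere in the counts, miR-199a-3p and miR-199b-3p had equal levels in every library, as if no read told them apart. Their reads thus look to have been counted for each. The paralogs among the members differ at base 19, so that pair does not show how reads common to these were counted. Whether reads of the members were counted in this way was not tested. Any read counted for both paralogs would draw them towards equal shares. Among all mature miRNAs of the reference table, the miR-23 seed was shared by 1 other, miR-23c, and the miR-27 seed by 1 other, miR-9985. No other miRNA of the table had the miR-24 seed. miR-23c, which differs from miR-23b-3p by G14U and A22C, had between 2 and 8 counts per library, and miR-9985 had 9 counts in all libraries together, so seed mates outside the clusters added little to either seed.

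The chromosome 19 cluster, with MIR23A, MIR27A and MIR24-2, covers 373 bases on the minus strand (chr19:13836287-13836659) and lies within exons of the non-coding gene AC020916.1 of the same strand (GENCODE release 29, GRCh38). The chromosome 9 cluster, with MIR23B, MIR27B and MIR24-1, covers 881 bases on the plus strand (chr9:95085208-95086088) in C9orf3, a protein-coding gene of the same strand. MIR23B and MIR27B lie in its introns and MIR24-1 overlaps an exon. MIR24-1 and MIR24-2 give the same mature miR-24-3p, so its counts cannot be divided between the clusters.

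The hEXO motif is 6 bases long, with 3 bases that are not C, then a base that is not U, then A or U, then G or C, and it was searched after base 7 on the mature strand. No match was found in miR-23a-3p, miR-23b-3p or miR-27a-3p. miR-27b-3p held 1 match, GUUCUG from position 15, which includes position 19, the base that differs from miR-27a-3p. miR-24-3p held 3 matches, the first of them GUUCAG from position 8. Thus 2 of 5 members had a match, whereas 63.6% of the 2370 mature miRNAs in the table and 65 of the 105 tested miRNAs with a sequence (61.9%) did. The 3 members without a match and the 2 with one are followed separately in the comparison of the groups.

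Library totals ran from 29863 to 388226 miRNA counts, with shSYNCRIP 2 the shallowest, and between 100 miRNAs (shSYNCRIP 4) and 275 were detected. 65 miRNAs were detected in every library. The 117 tested miRNAs held 93.7% to 99.1% of the counts, and the TMM scaling factors ran from 0.905 to 1.13. Of markers of hepatocytes, miR-122-5p took between 0.272% and 1.48% of the counts, while miR-192-5p was at 0 in every shCTR library and at most 0.000663% in shSYNCRIP. miR-194-5p varied between 0% and 0.477% and miR-148a-3p between 0% and 0.249%, each with its highest value in shCTR and its lowest in shSYNCRIP. The erythroid list (miR-451a, miR-486-5p and miR-144-3p) took between 8.54% and 18.7%, most of it miR-486-5p. Levels are in CPM, the counts scaled to a common total of the tested miRNAs with TMM factors. Each read counts 1 whole mature miRNA, so no length scaling was needed, but how well each sequence was captured in library preparation was not measured.

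The members were among the more abundant sEV miRNAs in every library. Together they took 8.31%, 6.71% and 7.32% of all counts in shCTR and 8.32%, 10.1%, 6.62% and 16.3% in shSYNCRIP. The last of these, shSYNCRIP 4, held the highest share, and shSYNCRIP 3 held a lower share than any shCTR library. The mean of their summed level over the 7 libraries was 96167 ± 41890 CPM (SD) and fell to 80951 without shSYNCRIP 4. Their counts ran from 123, for miR-24-3p in shSYNCRIP 2, to 13353, for miR-23a-3p in shCTR 3. At least 100 counts in every library were found for 30 of the 117 tested miRNAs (25.6%), the 5 members among them.

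miR-23a-3p, which is known to repress glutaminase, was the highest member in 6 of 7 libraries and ranked between 3 and 8 among all miRNAs of a library. Its level was 30557, 30663 and 34703 CPM in shCTR and 35486, 37346, 35608 and 84764 CPM in shSYNCRIP. Without shSYNCRIP 4 the libraries lay within 1.22-fold of each other, and shSYNCRIP 4 stood 2.27-fold above the next highest. Every shSYNCRIP library lay above every shCTR library, as for 3 of 117 miRNAs (2.56%), which is the value it was chosen by. miR-23b-3p, its chromosome 9 paralog, had 18329, 22416 and 21877 CPM in shCTR and 18143, 38481, 22639 and 30483 CPM in shSYNCRIP. Here shSYNCRIP 2 was the highest and shSYNCRIP 1 the lowest of all, so the groups overlapped, and the rank ran from 5 to 15.

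The miR-27 paralogs varied more. miR-27a-3p had 16619, 4127 and 7810 CPM in shCTR and 7432, 13171, 3678 and 28281 CPM in shSYNCRIP. miR-27b-3p had 14424, 6082 and 4470 CPM in shCTR and 9426, 10936, 5498 and 28301 CPM in shSYNCRIP. Both were highest in shSYNCRIP 4 and, of the shCTR libraries, in shCTR 1, and the lowest level of miR-27a-3p was in shSYNCRIP 3. The highest library exceeded the lowest by 7.69-fold for miR-27a-3p and by 6.33-fold for miR-27b-3p, and ranks ran from 14 to 58 and from 13 to 45.

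miR-24-3p, which both clusters encode, had 5954, 5268 and 5042 CPM in shCTR and 5534, 4230, 9761 and 15632 CPM in shSYNCRIP. It was the lowest member in 4 of 7 libraries, with ranks from 19 to 48. The shCTR libraries lay close together, while shSYNCRIP ran from below to above all of them.

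**Figure D1:**
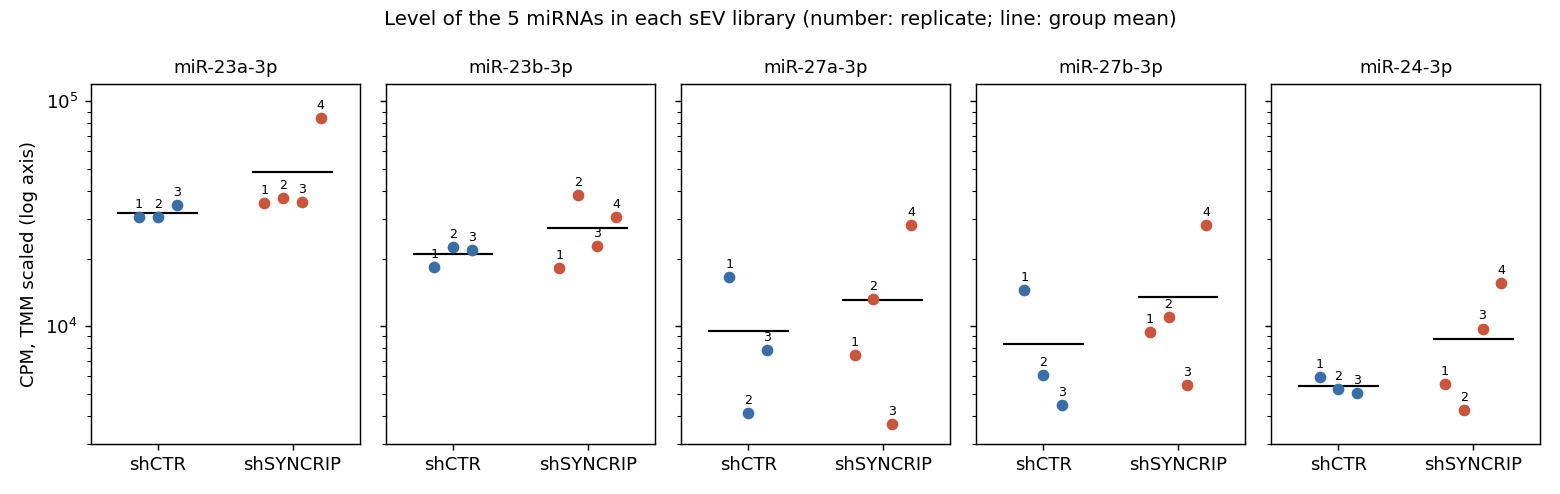
Level of each member (CPM, TMM scaled, log axis) in the 3 shCTR and 4 shSYNCRIP libraries. Each point is 1 library with its replicate number and the line is the group mean. shSYNCRIP 4 is the highest library for 4 of the 5 miRNAs, all but miR-23b-3p, and the groups overlap for all but miR-23a-3p.

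Across the 7 libraries the SD of the log2 CPM was 0.51 for miR-23a-3p, 0.39 for miR-23b-3p, 1.07 for miR-27a-3p, 0.92 for miR-27b-3p and 0.66 for miR-24-3p. Of the 117 tested miRNAs, 113 had a larger SD than miR-23b-3p, and 90 had a larger one than miR-27a-3p. Many of these had few or no counts in some library. Among the 30 with at least 100 counts in every library, 26 had a larger SD than miR-23b-3p and 23 than miR-23a-3p, but 16 than miR-24-3p, 8 than miR-27b-3p and 3 than miR-27a-3p. Among these 30 the miR-23 members thus varied less than most, and the miR-27 members more than most. The limit of 100 counts is a floor and does not match the miRNAs by depth.

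The order of levels within a library was then compared, since a difference between miRNAs of 1 library does not depend on how libraries are scaled. There were 8 pairs, the 2 paralog pairs and the 6 pairs encoded in 1 cluster, compared by a two-sided exact sign-flip permutation test over the 7 libraries. The abundance of miR-23a-3p was part of how the members were chosen, so its 3 pairs are given as a description, with no p. p-values were adjusted over the 8 pairs by Benjamini-Hochberg, and the smallest p this design can give is 0.0156. The p-values measure only the spread among these libraries.

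In the chromosome 19 cluster, miR-23a-3p exceeded miR-27a-3p by 2.08 ± 0.83 log2 units (SD), a 4.21-fold difference, in 7 of 7 libraries. It exceeded miR-24-3p by 2.54 ± 0.39, or 5.83-fold, also in 7 of 7. In the chromosome 9 cluster, miR-23b-3p exceeded miR-27b-3p by 1.35 ± 0.87, or 2.54-fold, and miR-24-3p by 1.84 ± 0.73, or 3.58-fold, each in 7 of 7 libraries (exact permutation test, adjusted p = 0.0313 for both, and 0.0391 when adjusted over the 5 pairs without miR-23a-3p alone). The size varied widely: the lead of miR-23b-3p over miR-27b-3p ran from 1.08-fold to 4.88-fold. The comparison of miR-24-3p with members of 1 cluster uses counts that the other cluster may share.

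The miR-27 members could not be told from miR-24-3p. miR-27a-3p minus miR-24-3p was 0.47 ± 1.06 and above 0 in 5 of 7 libraries (exact permutation test, adjusted p = 0.304), with libraries from -1.41 to 1.64. miR-27b-3p minus miR-24-3p was 0.50 ± 0.80, above 0 in 5 of 7 (exact permutation test, adjusted p = 0.208), from -0.83 to 1.37. Ordered by mean level, miR-23a-3p and miR-23b-3p came first, and the differences among the other 3 did not pass the test.

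Between paralogs, miR-23a-3p was above miR-23b-3p by 0.70 ± 0.46, or 1.63-fold, in 6 of 7 libraries, again as a description. The exception was shSYNCRIP 2, the shallowest library. miR-27a-3p minus miR-27b-3p was -0.03 ± 0.50 and above 0 in 3 of 7 (exact permutation test, adjusted p = 0.859), with libraries from -0.58 to 0.80. None of the 8 pairs separated the groups: in each, the within-library differences of shCTR and shSYNCRIP overlapped. With any 1 library left out, neither pair of miR-23b-3p passed (exact permutation test, adjusted p = 0.0781 over the 5 pairs), since the smallest p that 6 libraries can give is 0.0313.

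**Figure D2:**
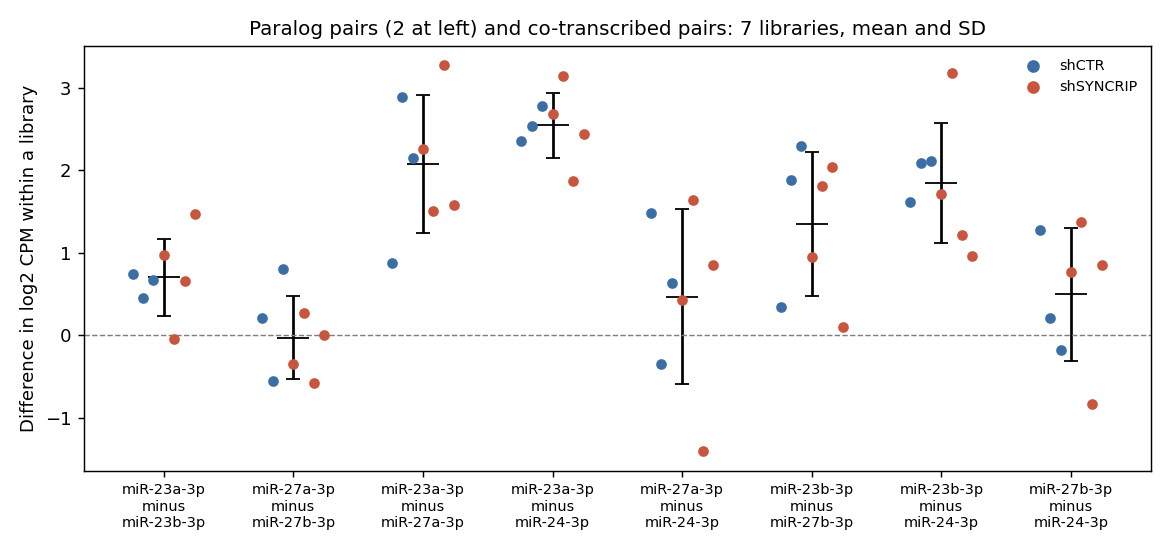
Within-library difference in log2 CPM for the 2 paralog pairs and the 6 co-transcribed pairs. Points are libraries, coloured by group, and the bar is the mean with the SD over 7 libraries. The 4 co-transcribed pairs with a miR-23 member lie above 0 in every library.

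As shares of counts, miR-23a-3p made up 62.5%, 57.8% and 61.3% of the miR-23a/b counts in shCTR and 66.2%, 49.3%, 61.1% and 73.5% in shSYNCRIP. The group means were 60.5% ± 2.5 (SD, n = 3) and 62.5% ± 10.2 (SD, n = 4), so the shares spread to both sides in shSYNCRIP. miR-27a-3p made up 53.5%, 40.4% and 63.6% of the miR-27a/b counts in shCTR and 44.1%, 54.6%, 40.1% and 50.0% in shSYNCRIP. These means were 52.5% ± 11.6 and 47.2% ± 6.4, with overlapping groups. The widest exact 95% binomial interval, for miR-27a-3p in shSYNCRIP 2, ran from 50.9% to 58.4%, and most libraries differed by more than their intervals. These cover counting error only, and are too narrow even for that where amplified reads are not independent molecules. Over miR-23 and miR-27 together, the chromosome 19 members held 58.6% ± 3.4 in shCTR and 58.9% ± 6.4 in shSYNCRIP, with a range of 50.6% to 65.8%. The lowest of these, in shSYNCRIP 2, had an exact 95% interval of 48.7% to 52.4%, which spans 50%, and the other 6 lay above 50%.

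**Figure D3:**
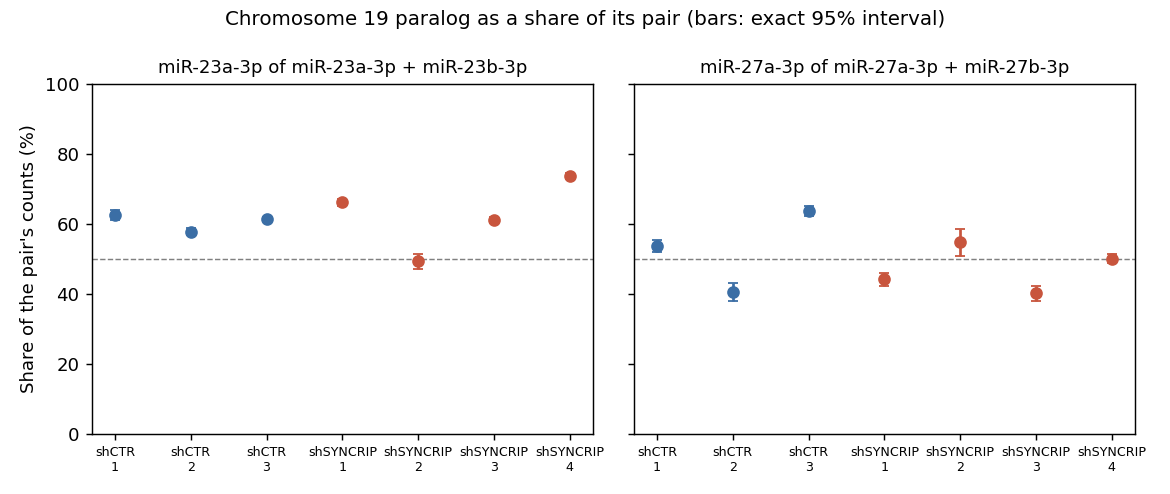
Counts of the chromosome 19 paralog as a percent of its pair in each library, for miR-23a/b (left) and miR-27a/b (right). Bars are exact 95% binomial intervals and the dashed line marks 50%. The miR-23a-3p share lies above 50% in 6 of 7 libraries, and the miR-27a-3p share lies on both sides.

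The 5p arms of the same 6 hairpins were almost absent. The 3p arms had 97380 counts in all libraries and the 5p arms 196, so that 99.8% came from the 3p arm. Of the 6 5p arms, 5 were at 0 in every library, where 3 counts would be 0.000255% of all counts. The exception was miR-27b-5p, with 194 counts in shSYNCRIP 1 and 1 count each in shCTR 3 and shSYNCRIP 2.

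Pairs that are transcribed together, or are paralogs, were next compared across libraries by the correlation of log2 CPM, over 7 libraries and the same 8 pairs. The libraries share composition and depth effects, and the values below are on TMM-scaled levels. Reads that fit both paralogs of a pair, if counted for each, would also raise the r of that pair, and their part was not tested. The levels of miR-23a-3p over the libraries were part of how the members were chosen. Its pairs are therefore given as a description, with no p. The highest was between the paralogs miR-27a-3p and miR-27b-3p, encoded on different chromosomes (Pearson r = 0.88, exact permutation p = 0.00913, adjusted p = 0.0730, and Spearman rho = 0.79, exact permutation p = 0.0480, adjusted p = 0.352). It was 0.77 without shSYNCRIP 4, and 0.61 without shCTR 1 and shSYNCRIP 4, the 2 libraries farthest from the median of miR-27a-3p. Without shCTR 3 it reached 0.97 (exact permutation test, adjusted p = 0.0111 over the 8 pairs). No other pair without miR-23a-3p passed in any of these settings. miR-23a-3p and miR-23b-3p gave r = 0.50 and rho = 0.71, with r = 0.42 without shCTR 1 and shSYNCRIP 4. The pair of miR-27a-3p and miR-27b-3p did not pass the adjusted threshold over all 7 libraries. That adjustment was over all 8 pairs, those of miR-23a-3p included. Unlike for the differences, adjustment without the pairs of miR-23a-3p was not made, and it could give a smaller value.

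For the co-transcribed pairs the correlation depended on single libraries. For miR-23a-3p and miR-24-3p, r was 0.80 and rho 0.21, but r was 0.011 without shCTR 1 and shSYNCRIP 4. For miR-23a-3p and miR-27a-3p, r was 0.65 and rho 0.21. Here r was 0.85 without shCTR 1, 0.63 without shCTR 1 and shSYNCRIP 4, and -0.011 without shSYNCRIP 4 alone. The first relation therefore rests on shSYNCRIP 4, and the second depends on both shSYNCRIP 4 and shCTR 1. The remaining 4 pairs had r between 0.12 and 0.53 with adjusted p from 0.367 to 0.819 (exact permutation tests), rho between -0.036 and 0.39 with adjusted p from 0.882 to 0.963, and r between -0.88 and 0.30 after the 2 farthest libraries were left out. With each library centred on its group mean, the 8 values of r ran from -0.089 to 0.90, the highest again for the miR-27 paralogs.

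Among the other 116 tested miRNAs, the 3 most like each member were ranked by Pearson r over the 7 libraries, as a description with no test. For miR-23a-3p these were miR-92a-3p (0.88), miR-24-3p (0.80) and miR-574-5p (0.76), which fell to 0.20, -0.028 and 0.22 without shSYNCRIP 4. For miR-23b-3p they were let-7i-5p (0.76), let-7e-5p (0.74) and miR-203a-3p (0.67), at 0.73, 0.70 and 0.59 without it. miR-27a-3p was most like miR-27b-3p, then miR-203a-3p (0.82) and let-7c-5p (0.71), the last 2 at 0.71 and 0.78 without it. miR-27b-3p was most like miR-27a-3p, then miR-92a-3p (0.83) and miR-203a-3p (0.75), the last 2 at 0.53 and 0.58 without it. miR-24-3p was closest to miR-92a-3p (0.87), miR-574-5p (0.84) and let-7f-5p (0.84), at 0.53, 0.60 and 0.59 without it. Only for miR-23a-3p was a co-transcribed miRNA, miR-24-3p, among the 3 closest of the 116.

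The last comparison is that of shSYNCRIP with shCTR, which chose the members, so nothing is read from it. In limma-voom fitted over all 117 miRNAs, the log2 fold change was 0.37 (SE 0.39) for miR-23a-3p, 0.12 (SE 0.48) for miR-23b-3p and 0.01 (SE 0.77) for miR-27a-3p, the 3 members without a hEXO match. It was 0.72 (SE 0.76) for miR-27b-3p and 0.70 (SE 0.87) for miR-24-3p, which had a match. All 5 values were above 0 and no larger than their standard errors, against 56 of 117 miRNAs above 0, a median of -0.07 and quartiles of -1.42 and 0.64 over all tested. The miR-27 paralogs, which differ in the motif by the base at position 19, had within-library differences of 0.15 ± 0.68 in shCTR and -0.16 ± 0.37 in shSYNCRIP, which overlapped.

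At the study's cut-offs (fold change beyond 0.5, read here on the log2 scale, with nominal p under 0.1), limma-voom called 21 of 117 miRNAs (17.9%), 15 lower and 6 higher in shSYNCRIP (the latter 5.13%), and 0 of the 5 members. The quasi-likelihood test of edgeR called 0 of 117 (0%) at an adjusted p under 0.05, with 2 at an unadjusted p under 0.05, and limma-voom and DESeq2 each called 3 at an adjusted p under 0.05, no member among them. With library size alone as the scale, every shSYNCRIP library lay above every shCTR library for 2 of 117 miRNAs (1.71%), and no member was among them.

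The values just inside that rule were close: the highest shCTR library of miR-23a-3p was at 34703 CPM and the lowest shSYNCRIP library at 35486 CPM. Scaled by library size alone they were 35878 and 32228 CPM, with shSYNCRIP 3 below shCTR 3, and with the size factors of DESeq2 42379 and 29819 CPM. The groups of miR-23a-3p were apart in 5 of 17 settings, whose levels were all computed by TMM with the default filter and 7 libraries. The DESeq2 test is among these 5, but it was fitted with its own size factors, under which the groups overlapped as given above. The groups also overlapped in each of the 7 settings without 1 library, in which the filter and TMM were recomputed. Without shSYNCRIP 4, for instance, the scaling factor of shCTR 3 went from 1.03 to 0.733, and its miR-23a-3p level from 34703 to 48924 CPM. For the other 4 members the groups overlapped in all 17 settings.

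**Figure D4:**
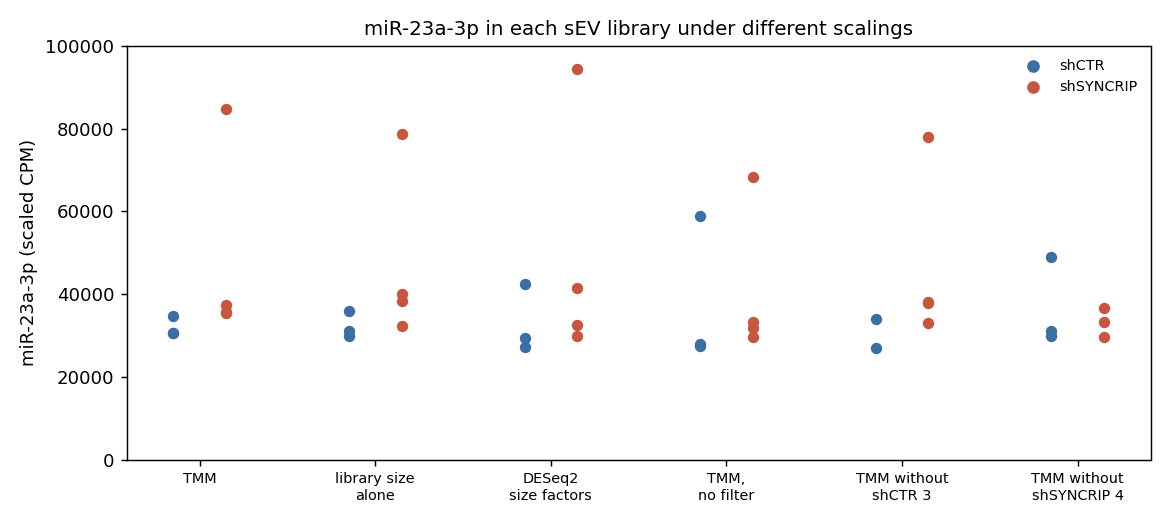
Level of miR-23a-3p (scaled CPM) in each shCTR and shSYNCRIP library under 6 ways of scaling or choosing the libraries. Each point is 1 library. The groups are apart only under TMM with the default filter and all 7 libraries, and shSYNCRIP 4 is the highest point wherever it is included.

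Over the 16 alternative fits, the log2 fold change of miR-23a-3p ran from -0.26, without shSYNCRIP 4, to 0.60, and 4 of the fits were below 0. miR-23b-3p ran from -0.37 to 0.39 (8 below 0), miR-27a-3p from -0.94 to 0.56 (12 below 0) and miR-27b-3p from -0.22 to 0.97 (2 below 0), each lowest without shSYNCRIP 4. miR-24-3p ran from 0.06, also without shSYNCRIP 4, to 0.70 and stayed above 0. With the filter and scaling of the 7 libraries kept, leaving out shSYNCRIP 4 gave 0.13 for miR-23a-3p, 0.03 for miR-23b-3p, -0.50 for miR-27a-3p, 0.29 for miR-27b-3p and 0.50 for miR-24-3p. The settings also moved the median of all tested miRNAs, from -0.57 without shSYNCRIP 3 to 0.50 with no filter, and relative to that median miR-23a-3p ran from -0.57 to 0.90. The direction of these small differences thus turned with the setting for all members but miR-24-3p, whose value relative to the median was below 0 in 1 fit, that with no filter (-0.28).

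**Figure D5:**
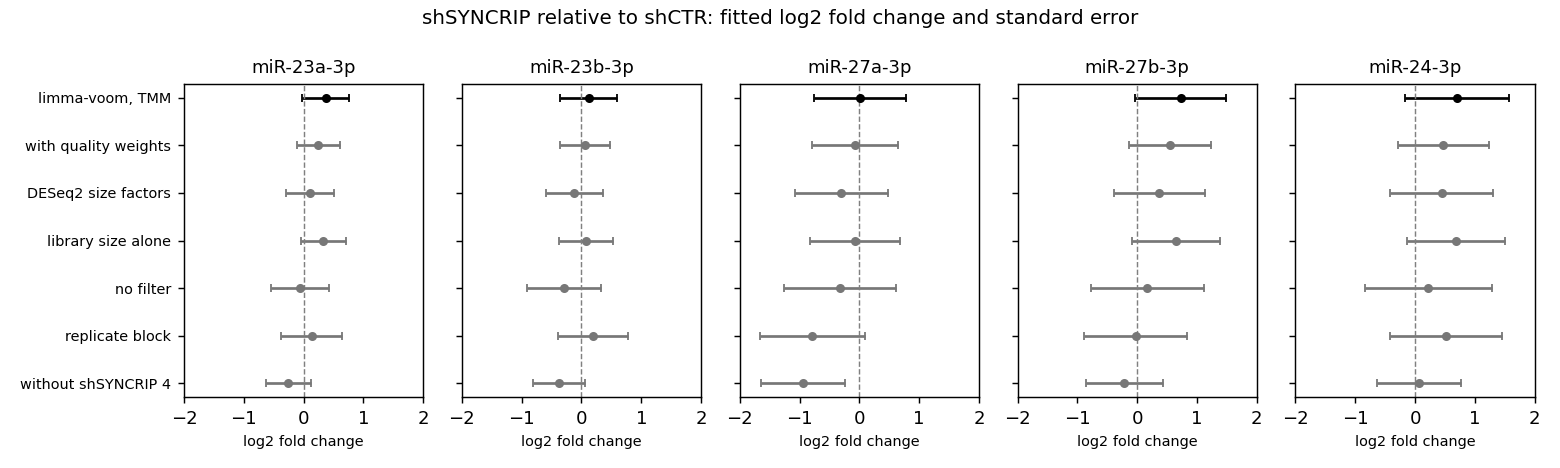
Fitted log2 fold change of shSYNCRIP relative to shCTR for each member, with its standard error as bars, in limma-voom with TMM (black) and 6 alternatives (grey). Every value without shSYNCRIP 4 lies below the TMM value, and only that of miR-24-3p is then above 0.

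The high levels of miR-23a-3p, miR-27a-3p, miR-27b-3p and miR-24-3p in shSYNCRIP 4 were not particular to the members. miR-92a-3p had 45444 CPM there, against 14793 CPM in the next highest library, and miR-574-5p had 15472 against 7651 CPM. Some miRNAs were instead lowest there, such as miR-16-5p at 48456 CPM. Other values of shSYNCRIP 4 also stood low. It had the fewest miRNAs detected, 100. The leukocyte list took 0.317% of its counts, against 1.15% to 2.33% in shCTR and up to 1.59% in shSYNCRIP, with 3 of its 4 markers at 0. The liver list took 0.272%, against 0.523% to 1.01% in shCTR and up to 1.49% in shSYNCRIP, all of it miR-122-5p. The erythroid list took 8.54%, against 9.49% to 18.7% in shCTR and up to 12.3% in shSYNCRIP, with miR-451a at 0 there, while miR-144-3p was at 0 in every shCTR library too. The endothelial list took 0.566%, against 1.06% to 3.44% in shCTR, but was lower still in shSYNCRIP 2, at 0.0234%. The mesenchymal list was not low, at 2.03% against 1.60% to 2.31% in shCTR, nearly all of it miR-199a-3p. Their part in the levels of the members was not tested.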

How the data were processed

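Small RNA was sequenced from sEVs of HepG2 cells, 3 shCTR and 4 shSYNCRIP samples, grouped by their titles. The authors removed adapters with FastqToolkit, filtered out short and low-quality reads with Cutadapt, kept forward reads and counted them with MiRDeep2 against miRBase. They deposited raw counts, 1 row per mature miRNA, with no normalization. The submitters' processing notes name GRCh38, cutadapt and edgeR.

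Members were matched by name. The members and all lists were chosen with earlier results of these data known. miRNAs were kept by filterByExpr of edgeR 4.0.16 (117 of 2656), scaled by TMM and fitted over all 117 with limma-voom (limma 3.58.1), as in the study's methods, with its cut-offs of a nominal p of 0.1 and a fold change of 0.5, taken here as log2. The quasi-likelihood test of edgeR and DESeq2 1.42.0 were also run, in R 4.3.3. Since the comparison of the groups and the abundance of miR-23a-3p chose the members, no p is given for that comparison or for any pair of miR-23a-3p. log2 CPM used a prior count of 2. Paralogs and co-transcribed miRNAs were compared by exact sign-flip tests (128 sign patterns) and correlated with exact permutation over 5040 pairings, in Python 3.11.15, two-sided and adjusted over 8 pairs. The scripts were tested on simulated data. Sequences were those of RefSeq, and 105 of the 117 tested miRNAs matched.

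Named miRNAs were the 5 members, their 5p arms, products of overlapping or next hairpins, miRNAs with the same seed, and the 3 most correlated with each member. Alternatives were other tests, scalings, filters and prior counts, a replicate block and each library left out. Totals from 29863 to 388226 counts limit the precision. RT-qPCR and binding data were not analysed here.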

Additional observations from a re-analysis of the deposited data

Results flagged for a closer look

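In shSYNCRIP, miR-23a-3p of replicate 4 stood far above the other 3 libraries, at a log2 CPM of 16.4 against 15.1 to 15.2 (Dixon's ratio 0.941). Of 17 groups of values examined in this way 1 stood out, where chance gives 0.85. The values that stood out are among those the members were chosen by, so this is a description and not a test. The level there was 84764 CPM, or 7.37% of the library's counts, with an exact 95% interval of 7.22% to 7.52% for counting error. The lead was not seen for miR-23b-3p, at 30483 CPM in the same library. It was not particular to miR-23a-3p, since shSYNCRIP 4 was also above the next highest library for miR-27a-3p (1.70-fold), miR-27b-3p (1.96-fold) and miR-24-3p (1.60-fold). Nor was it particular to the members, since miR-92a-3p had 45444 CPM there, against 14793 CPM in the next highest library.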

How the results depend on the processing

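The count of 21 miRNAs called between the groups was 8 with the quasi-likelihood test of edgeR, 11 with DESeq2, 87 of 406 with no filter, 3 of 36 with at least 10 counts in every library and 13 with the replicate block, and between 16 and 22 without 1 library. No member was called in any of these. Replicate numbers did not pair the samples: deviations of same-numbered libraries correlated by -0.064 to 0.088, and 1 of 3 shCTR libraries correlated best with its own number. With the replicate block, shSYNCRIP 4 had no partner, and the log2 fold changes were 0.13, 0.19, -0.78, -0.03 and 0.51 for miR-23a-3p, miR-23b-3p, miR-27a-3p, miR-27b-3p and miR-24-3p. The within-library differences of miR-23b-3p from miR-27b-3p and miR-24-3p also passed with a prior count of 0.5 or 5, and were the 2 of 5 to pass when the pairs of miR-23a-3p were left out of the adjustment, and 0 passed without any 1 library. miR-27a-3p minus miR-27b-3p changed sign, from -0.17 to 0.062 without 1 library. Of the correlations, 0 to 1 passed without 1 library. r of miR-23b-3p and miR-24-3p turned to -0.084 with library size alone, -0.089 with centred groups and -0.40 without shSYNCRIP 4 (-0.40 to 0.80 without 1 library). Without shSYNCRIP 4, r turned to -0.011 for miR-23a-3p and miR-27a-3p, -0.028 for miR-23a-3p and miR-24-3p, -0.56 for miR-27a-3p and miR-24-3p and -0.28 for miR-27b-3p and miR-24-3p, against highest values of 0.85, 0.91, 0.67 and 0.77 without another library. The summed level of the members was 80951 to 100769 CPM without 1 library and 95237 CPM with library size alone. Keeping the 7-library scaling and filter when a library is left out, and leaving out the pairs of miR-23a-3p, were chosen after seeing the data.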

Other observations

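The hairpins next to the clusters gave few counts apart from 1. On chromosome 19, miR-181c-3p had 876 counts in shSYNCRIP 4, 5 in shSYNCRIP 1, 1 in shCTR 3 and 0 in the other 4 libraries. The opposite arm, miR-181c-5p, had 4 counts in all libraries, miR-181d-5p had 5 and miR-181d-3p had 0. On chromosome 9, the hairpin that overlaps MIR24-1 on the opposite strand gave 5 counts of miR-3074-3p, all in shSYNCRIP 3, and 0 of miR-3074-5p. None of these passed the filter on low counts. The 876 counts of miR-181c-3p and the 194 of miR-27b-5p each come from 1 library, so neither can be set against a spread between replicates.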
